A study of Homo sapiens with 8 samples.

Results

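Whether the line HCC1937 answered the drug COH29 differently once it carried exogenous wild-type BRCA1 was measured gene by gene, as the COH29 effect in HCC1937 minus the COH29 effect in HCC1937+BRCA1. All 8 of the 8 arrays of the series entered, sorted by their titles into 4 groups of 2. HCC1937 is an established human breast cancer line whose own BRCA1 is truncated, and the series describes it as deficient in DNA repair. HCC1937+BRCA1 derives from it by introduction of a wild-type BRCA1. In each line 1 group received 10 µM COH29 for 24 h and 1 group was a control without COH29, for which no vehicle or culture time was given. All cells grew in the same serum-supplemented medium. The labels do not say what drives the exogenous BRCA1, whether HCC1937+BRCA1 is 1 clone, or whether a group's 2 arrays stem from independent cultures. The p-values therefore rest on the spread between arrays, some or all of which may be technical. Each line is 1 line, so what the added BRCA1 did and what else may differ between the lines cannot be told apart.

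COH29 inhibits ribonucleotide reductase, the enzyme that turns ribonucleotides into the deoxynucleotides that DNA synthesis and repair use up. BRCA1 acts in homologous recombination, the repair of broken DNA from an intact copy, and at stalled replication forks. Drugs and nutrient shortage can also set off the integrated stress response, in which the transcription factors ATF4 and CHOP raise genes for amino acid synthesis, redox balance and translation control. AP-1 (the FOS and JUN proteins) and the other immediate early genes answer growth factor and stress kinases, and the hypoxia-inducible factors raise genes for glucose use and vessel growth.

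Values were log2 intensities of 18417 genes, on which a step of 1 is a doubling. A negative difference means that the response lay higher in HCC1937+BRCA1, and a positive one that it lay higher in HCC1937. A gene was called where limma's fit to all 8 arrays gave an adjusted p (Benjamini-Hochberg, over all genes) under 0.05. Within groups, r across genes was 0.996 to 0.997, and the median standard error (SE) of a difference was 0.145. Of the epithelial markers, KRT8, KRT18 and EPCAM had mean levels at percentiles 99.8, 99.6 and 98.3, while KRT19 and ESR1 sat at 52.5 and 51.8. Of the leukocyte markers, PTPRC sat at percentile 3.0, but CD14 at 57.5 and CD68 at 89.7. The markers thus did not split cleanly by cell type. Percentiles are a rough guide, since probe sets differ in affinity. BRCA1 itself does not check the labels here. Its probe set read 10.45 and 10.64 in HCC1937 and 10.50 and 10.43 in HCC1937+BRCA1, with 10.40 and 10.46 and then 10.25 and 10.07 after COH29, so the untreated lines overlapped, and where its probes lie relative to the truncation or the introduced copy was not analysed here.

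The difference of response was called for 176 genes, 0.956% of those tested. The response lay higher in HCC1937+BRCA1 for 100 (0.543%) and higher in HCC1937 for 76 (0.413%), so 43.2% of the calls were positive. Shifting each array to one median turned that split to 53.3% positive, and leaving out low genes to 53.6%. COH29 itself changed 4179 genes (22.7%) in HCC1937 and 6195 (33.6%) in HCC1937+BRCA1. Over all genes the effects of the 2 lines correlated with r = 0.815, a description across genes, and effects spread more widely in HCC1937+BRCA1 (SD 0.434, against 0.345). Over all genes the median difference was 0.02. Without adjustment 2428 genes (13.2%) had a p under 0.05. Fewer genes were called whichever array was left out, and such a fit has fewer residual degrees of freedom. A lost call therefore does not show that it rested on that array. With any 1 of the 8 left out, between 41 and 67 genes were called, and 29 genes, 21 negative and 8 positive, were called in all 8 such fits. In the full fit each of these genes had a limma adjusted p of at most 0.00785. A call in all 8 is thus a stricter cut on the same arrays and no separate evidence. The other called genes lost their call in at least 1 of these 8 reduced fits, as given where they are named. The description below covers genes of both kinds. For all 176 called genes, and for 5051 (27.4%) of all genes, the treated-minus-control array differences did not overlap between the lines. Leaving out 1 array therefore could not turn a sign, and the filter, moderation settings and replicate block do not change the estimate. Shifting arrays to one median moves every gene's difference by the same amount, and took the median from 0.024 to 0.068. The smallest called difference was 0.59 in size, so this shift could not turn a called sign. Averaging probe sets alters only the 769 genes with several. Cyclic loess and, for those genes, averaging could turn a sign, and no called gene changed sign under them.

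**Figure D1:**
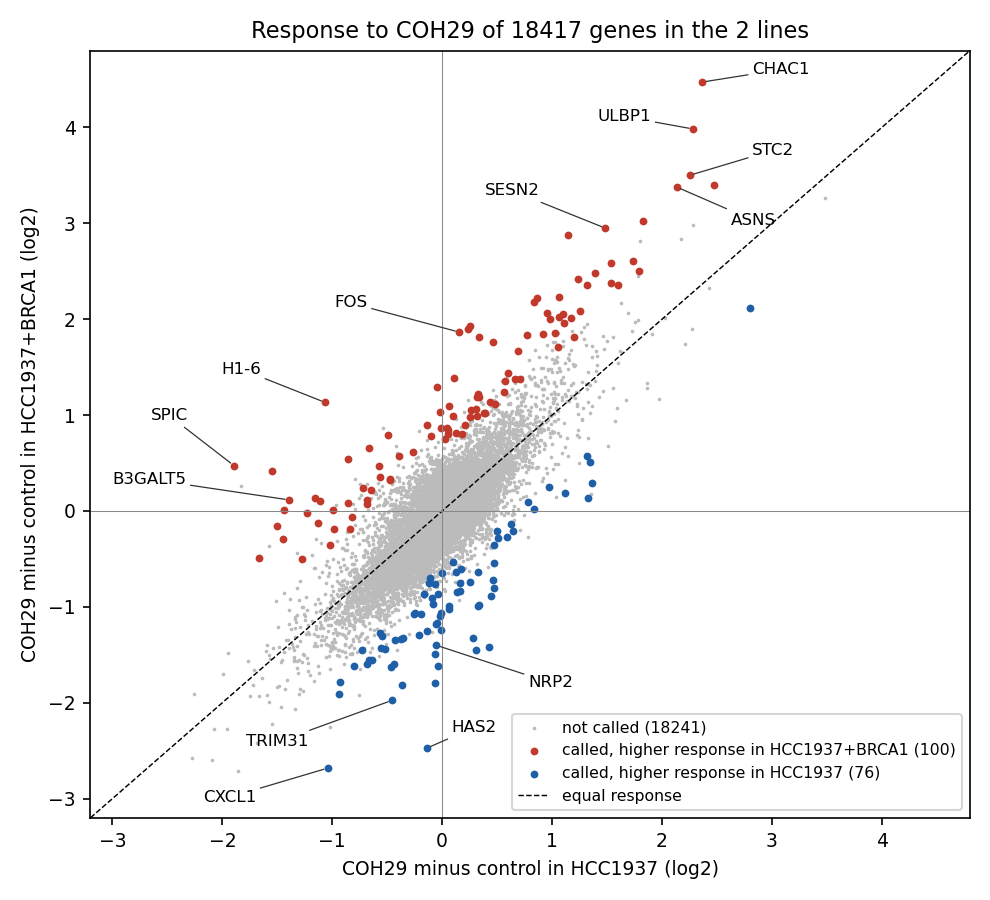
Each point is 1 of 18417 genes, with the COH29 effect in HCC1937 on the horizontal axis and in HCC1937+BRCA1 on the vertical axis (log2, treated minus control group mean, 2 arrays per group). The 100 red genes lie above the dashed line of equal response, many of them where both effects are positive, and the 76 blue genes lie below it, most of them where the effect in HCC1937+BRCA1 is negative.

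By the effect called in each line, the 100 negative differences held 46 genes that rose in both lines, 24 that rose in HCC1937+BRCA1 and were not called in HCC1937, 18 that fell in HCC1937 and were not called in HCC1937+BRCA1, 9 with a fall in HCC1937 against a rise in HCC1937+BRCA1, and 3 that fell in both. The 76 positive differences held 39 genes that fell in HCC1937+BRCA1 and were not called in HCC1937, 17 that fell in both lines, 10 that rose in HCC1937 and were not called in HCC1937+BRCA1, 7 with a rise in HCC1937 against a fall in HCC1937+BRCA1, and 3 that rose in both. The same arrays enter all 3 tests, so these counts describe how the differences were made up and are no separate evidence. Of the 46 genes that rose in both lines, 21 belonged to the integrated stress, AP-1 or hypoxia lists described next. These lists hold 29, 26 and 29 of the 18417 genes. They were chosen with earlier results of these data known, so the count of 21 is a description and no separate evidence.

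The promoters of 4 called genes of the stress, metallothionein and immediate early groups are shown because each holds matches to the element through which that group is classically driven. They run from 250 bases before to 50 bases after the RefSeq start (GRCh38.p14), 5′ to 3′ on the gene's strand, with the matches in capitals. CHAC1 lies at chr15:40953221-40953520 (plus strand) and ASNS at chr7:97872359-97872658 (minus strand), each with 1 match to TGATGNAA, the element bound by ATF4 with C/EBP partners. MT1X lies at chr16:56682220-56682519 (plus strand), with 4 matches to the core of the metal response element, TGCACNC or TGCGCNC, and EGR1 at chr5:138465229-138465528 (plus strand), with 2 CArG boxes, the element of serum response factor.
CHAC1: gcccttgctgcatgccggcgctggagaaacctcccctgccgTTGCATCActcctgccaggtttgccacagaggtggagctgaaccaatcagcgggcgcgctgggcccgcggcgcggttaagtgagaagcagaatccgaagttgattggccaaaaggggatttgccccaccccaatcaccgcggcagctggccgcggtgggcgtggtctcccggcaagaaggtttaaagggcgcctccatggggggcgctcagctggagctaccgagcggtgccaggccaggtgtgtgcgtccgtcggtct
ASNS: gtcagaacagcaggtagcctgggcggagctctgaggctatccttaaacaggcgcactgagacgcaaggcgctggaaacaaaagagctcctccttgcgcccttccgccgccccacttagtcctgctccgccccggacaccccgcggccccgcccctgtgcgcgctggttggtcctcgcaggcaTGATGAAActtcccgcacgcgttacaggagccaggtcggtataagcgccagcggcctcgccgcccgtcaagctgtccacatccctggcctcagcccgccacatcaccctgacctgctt
MT1X: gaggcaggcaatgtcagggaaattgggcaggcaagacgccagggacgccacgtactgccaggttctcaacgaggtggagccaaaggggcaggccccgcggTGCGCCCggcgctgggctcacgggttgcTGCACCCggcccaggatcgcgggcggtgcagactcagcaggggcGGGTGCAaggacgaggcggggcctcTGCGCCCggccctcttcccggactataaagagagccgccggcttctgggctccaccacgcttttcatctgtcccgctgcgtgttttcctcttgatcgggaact
EGR1: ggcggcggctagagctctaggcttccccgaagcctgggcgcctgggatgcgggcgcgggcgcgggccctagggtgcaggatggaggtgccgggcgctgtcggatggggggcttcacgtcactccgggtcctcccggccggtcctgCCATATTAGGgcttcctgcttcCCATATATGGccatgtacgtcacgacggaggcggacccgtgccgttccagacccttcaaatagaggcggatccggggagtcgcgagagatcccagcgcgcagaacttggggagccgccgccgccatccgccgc
Both strands were searched, and overlapping matches of different motifs were not merged. Counted from the start, the match begins at -209 in CHAC1 and -68 in ASNS, the MT1X matches at -150, -122, -78 and -53, and the EGR1 boxes at -105 and -83. Among the 14239 tested genes with a promoter in the table, 361 (2.54%) held the ATF4 element, 4982 (35.0%) the metal response core and 174 (1.22%) a CArG box. The ATF4 element stood in 2 of the 10 promoters found for the 12 called stress response genes, and a CArG box in 1 of the 6 found for the 7 called immediate early genes. Over all measured members of these lists the counts were 4 of 23 (17.4%) and 1 of 19. The ATF4 element was thus about as frequent in the whole stress list as in its called genes. A match is a description of the letters and does not show a bound site.

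Most genes of the integrated stress response rose in both lines, and 12 of 29 had a higher response in HCC1937+BRCA1. Of the 29 measured members of the list, 25 rose in HCC1937 and 27 in HCC1937+BRCA1, with median effects of 1.11 and 1.77, and 1 fell in HCC1937+BRCA1. Of all genes, 22.7% in HCC1937 and 33.6% in HCC1937+BRCA1 rose or fell, shares that also stand beside the later lists. The 12 called differences were all negative, against 0.543% negative calls among all genes. The median difference of the list was -0.55, against 0.02 for all genes, and 26 of 29 members were negative. The list also lay at -0.50 with arrays at one median and at -0.57 after cyclic loess. With any 1 array left out, 5 to 7 members were called, and CHAC1, SESN2, STC2, ASNS and NUPR1 were called in every such fit.

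CHAC1, which encodes an enzyme that breaks down glutathione and is a target of ATF4 and CHOP, had the smallest p of all genes. It read 8.76 and 8.65 in untreated HCC1937 and 11.04 and 11.10 with COH29, against 7.89 and 7.85 and then 12.33 and 12.37 in HCC1937+BRCA1. The HCC1937+BRCA1 arrays were thus the lowest before and the highest after the drug, and no groups overlapped. The effects were 2.37 and 4.47, and their difference was -2.11 ± 0.12 (SE; 95% interval -2.37 to -1.84; limma adjusted p = 0.000438). Its promoter is the first printed above.

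SESN2 encodes sestrin 2, a stress protein that restrains the growth kinase mTORC1. It went from 8.63 and 8.53 to 10.04 and 10.09 in HCC1937 and from 8.11 and 8.13 to 10.98 and 11.16 in HCC1937+BRCA1. As for CHAC1, the lower starting group ended higher, and the difference was -1.46 ± 0.13 (SE; adjusted p = 0.0031). ASNS, the enzyme that makes asparagine, went from 8.25 and 8.44 to 10.48 and 10.48 and, in HCC1937+BRCA1, from 7.95 and 8.02 to 11.32 and 11.40. Its difference was -1.25 ± 0.13 (adjusted p = 0.00587). STC2, a secreted glycoprotein of the stress response, differed in another way. It read 8.81 and 8.76 in untreated HCC1937 and 7.28 and 7.28 in untreated HCC1937+BRCA1, then 10.99 and 11.09 against 10.75 and 10.82. The treated group means lay 0.25 apart, so the difference of -1.25 ± 0.12 (adjusted p = 0.00401) came with a gap between the untreated lines. NUPR1, a small stress-induced chromatin protein gene, rose by 1.23 and 2.42, a difference of -1.19 ± 0.14 (adjusted p = 0.00785). NUPR1 was picked for mention after its values were seen.

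The other 7 called members lost their call without at least 1 array. None of them was called in more than 2 of the 8 reduced fits. They were ULBP1, a ligand gene of the natural killer receptor NKG2D (difference -1.70 ± 0.28), ALDH1L2 of mitochondrial folate metabolism (-1.04), DDIT3, which encodes CHOP (-0.93), the phosphatase subunit gene PPP1R15A (-0.85), CTH of cysteine synthesis (-0.84), the pseudokinase gene TRIB3 (-0.83) and PSAT1 of serine synthesis (-0.67). Reduced fits kept the calls of DDIT3, PPP1R15A, CTH and PSAT1 in 0 cases and those of ALDH1L2 and TRIB3 in 1 each, without untreated HCC1937+BRCA1 array 1 and without treated HCC1937 array 2. The highest adjusted p of these 6 lay between 0.1 for TRIB3, without untreated HCC1937 array 2, and 0.185 for ALDH1L2, without untreated HCC1937 array 1. PSAT1 was also lost with arrays at one median (adjusted p = 0.0663) and ALDH1L2 after cyclic loess (0.0674). With the replicate number as a block the list held 8 calls. DDIT3 (limma adjusted p = 0.0584), CTH (0.0631), PPP1R15A (0.0679) and PSAT1 (0.0735) were lost there. ULBP1 shows how wide the spread could be, with 9.25 and 9.70 on the treated HCC1937 arrays and 11.61 and 12.07 on the treated HCC1937+BRCA1 arrays. Its adjusted p of 0.0311 lay above the threshold without either untreated HCC1937 array (0.108 and 0.0678), treated HCC1937 array 1 (0.0855), either untreated HCC1937+BRCA1 array (0.108 and 0.0742) or treated HCC1937+BRCA1 array 2 (0.112). Not every target followed. GDF15, a stress cytokine gene, rose by 2.43 and 2.33 (difference 0.10, 95% interval -0.49 to 0.68), and PHGDH, the first enzyme of serine synthesis, by 1.02 and 1.15 (difference -0.14, -0.46 to 0.18). ATF4 transcript rose by 0.55 and 0.95, and its difference of -0.39 ± 0.14 was not called (adjusted p = 0.26).

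In gene groups that stand beside this response, between 0 and 3 members each were called, against 0.956% of all genes. Of 17 amino acid transporters, SLC1A4 (-0.84) and SLC7A11 (-0.71), which carries cystine, were called negative and SLC43A1 (0.74) positive. The chaperone gene DNAJB9 (-0.87) and HERPUD1 (-0.76), which acts in degradation of misfolded proteins, were the 2 called of 22 genes of the endoplasmic reticulum unfolded protein response. Of 22 autophagy and lysosome genes, MAP1LC3B (-1.06) and GABARAPL1 (-0.78), which coat the autophagosome membrane, were called, and BAG3 (-0.62), a co-chaperone gene, was the 1 called of 16 heat shock genes. None of these 8 kept its call without each array in turn, with the highest adjusted p between 0.0852 (MAP1LC3B, without untreated HCC1937 array 2) and 0.201 (BAG3, without the same array). SLC7A11 (limma adjusted p = 0.0705) and BAG3 (0.0858) were also lost with arrays at one median, and SLC43A1 after cyclic loess (0.0631). The replicate block lost these genes and SLC1A4, HERPUD1 and GABARAPL1. For the 19 cytosolic aminoacyl-tRNA synthetases, which ATF4 also raises in many cells, 0 were called by limma, 2 had an unadjusted p under 0.05 and the median difference was 0.00.

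**Figure D2:**
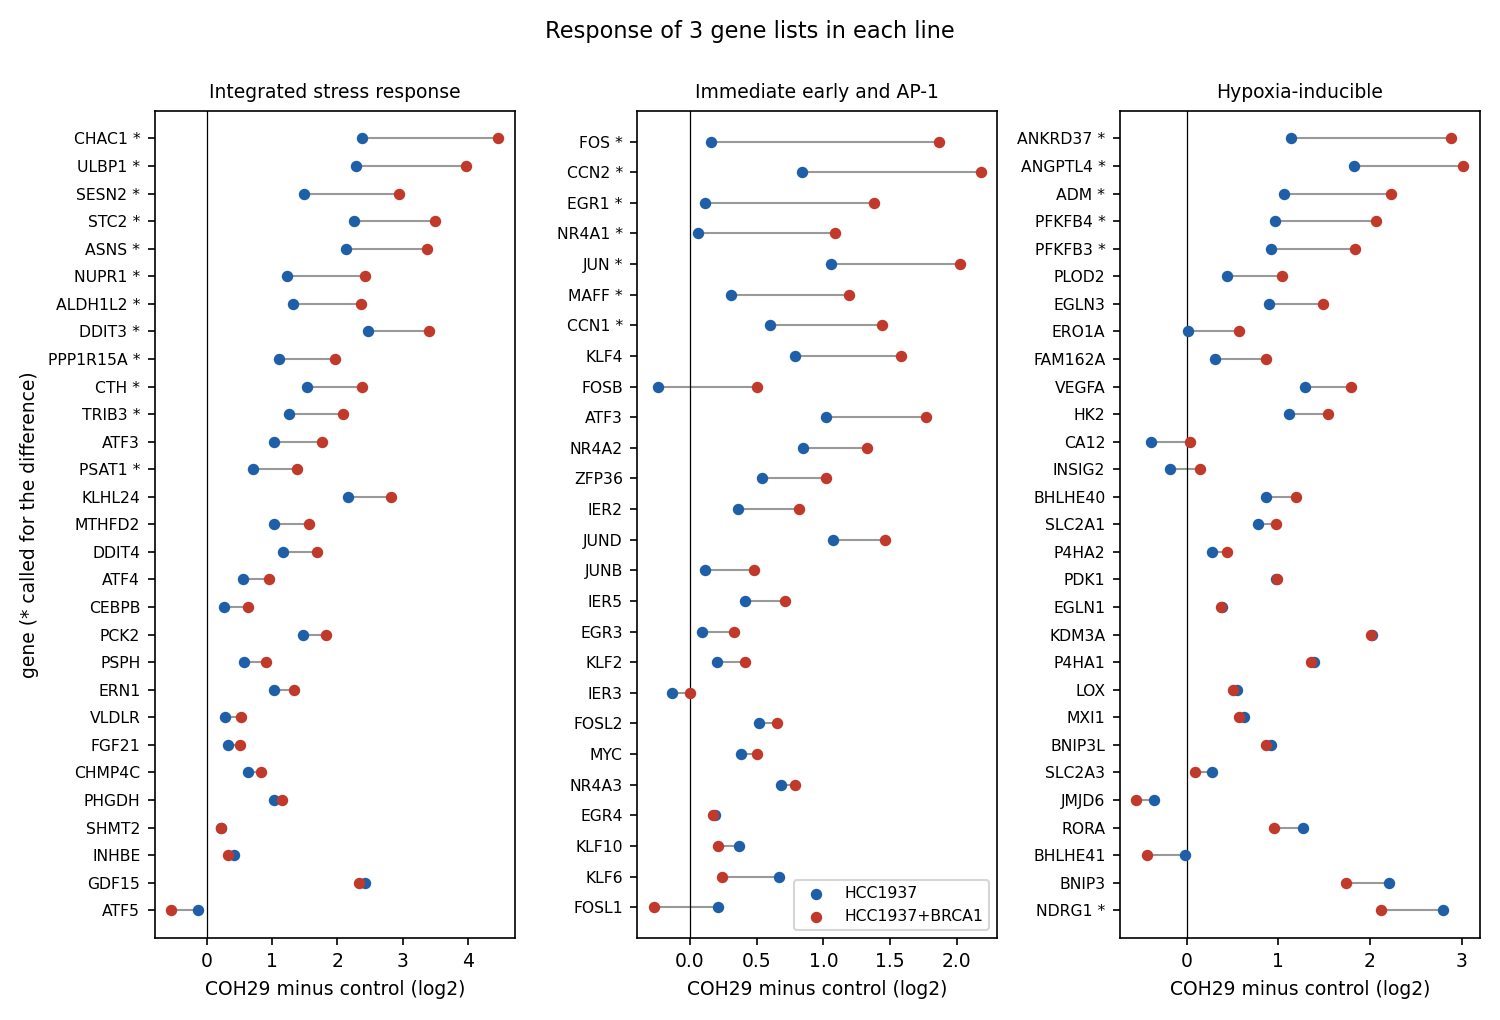
The COH29 effect (log2, treated minus control group mean of 2 arrays each) is drawn for every measured member of the integrated stress (29), immediate early and AP-1 (26) and hypoxia (29) lists, blue in HCC1937 and red in HCC1937+BRCA1, with an asterisk where the difference was called. The horizontal scales of the 3 panels differ. Red lies to the right of blue for 26 stress, 22 immediate early and 17 hypoxia genes.

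Immediate early and AP-1 genes included 7 with a higher response in HCC1937+BRCA1. Of 26 measured members, 16 rose in HCC1937 and 21 in HCC1937+BRCA1 and 0 fell, with median effects of 0.37 and 0.81. The difference was called for 7, all negative, against 0.543% negative calls among all genes, and the median difference was -0.43. Leaving out 1 array left 1 to 5 calls, and of the 7 only CCN2 was called in all 8 such fits. CCN2, a secreted matrix protein gene (CTGF), went from 8.88 and 8.71 to 9.54 and 9.72 in HCC1937 and from 8.23 and 8.43 to 10.57 and 10.45 in HCC1937+BRCA1. Its difference was -1.35 ± 0.16 (adjusted p = 0.00785). DUSP1, a phosphatase that switches off MAP kinases and the 1 called of 19 genes of that feedback list, went from 10.36 and 10.15 to a mean of 11.12 ± 0.16 (SD, n = 2) in HCC1937 and from 9.45 and 9.52 to 11.64 and 11.78 in HCC1937+BRCA1. For both genes HCC1937+BRCA1 was the lower line before and the higher line after the drug, and the DUSP1 difference of -1.36 ± 0.16 (adjusted p = 0.00785) was also called in all 8 fits.

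FOS showed mainly an untreated gap. It read 10.95 and 10.56 in untreated HCC1937, 10.69 and 11.13 with COH29, 9.22 and 9.37 in untreated HCC1937+BRCA1, and 11.16 and 11.16 with COH29. The untreated HCC1937+BRCA1 arrays were apart from the other 6, and in HCC1937 the treated and untreated arrays overlapped. The difference was -1.71 ± 0.23 (adjusted p = 0.0145), and the call was lost without untreated HCC1937 array 1 (adjusted p = 0.0538), untreated HCC1937+BRCA1 array 1 (0.0566) or either treated HCC1937+BRCA1 array (0.0605 and 0.0726). EGR1, whose promoter is printed above, had the same order of groups, at 11.71 and 11.29, 11.44 and 11.78, 10.31 and 10.58, and 11.81 and 11.84 (difference -1.27 ± 0.23, adjusted p = 0.0429). No reduced fit kept the EGR1 call, with adjusted p up to 0.144 without treated HCC1937+BRCA1 array 2, and cyclic loess took it to 0.0505. The replicate block took the limma adjusted p of EGR1 to 0.0742. FOS, EGR1 and NR4A1 were not called for a rise in HCC1937, with effects of 0.16, 0.11 and 0.06. JUN rose in both lines, by 1.06 and 2.02, with a difference of -0.95 ± 0.12 (adjusted p = 0.0117) that missed the threshold without either untreated HCC1937 array, untreated HCC1937+BRCA1 array 1 or either treated HCC1937+BRCA1 array (adjusted p from 0.051 to 0.0692). NR4A1 (-1.03), MAFF (-0.87) and CCN1 (-0.84) were the other called members, kept in 2, 1 and 1 of the 8 reduced fits, with adjusted p up to 0.0741 and 0.119 without treated HCC1937+BRCA1 array 2 for NR4A1 and CCN1 and up to 0.113 without untreated HCC1937 array 2 for MAFF. FOSL1, KLF6 and KLF10 had positive differences of 0.48, 0.44 and 0.16 that were not called.

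Hypoxia-inducible genes split. Of 29 measured members, 22 rose in HCC1937 and 24 in HCC1937+BRCA1, with median effects of 0.90 and 0.99. The difference was called negative for 5 and positive for 1, against 0.543% and 0.413% of all genes. ANGPTL4, a lipase inhibitor gene, went from 8.53 and 8.55 to 10.26 and 10.47 in HCC1937 and from 8.84 and 8.83 to 11.78 and 11.93 in HCC1937+BRCA1. Its difference was -1.20 ± 0.14 (adjusted p = 0.00785). PFKFB4, a regulator of glycolysis, started level in the lines, at 7.16 and 7.23 against 7.20 and 7.09, and reached 8.13 and 8.17 against 9.23 and 9.20. The untreated groups of PFKFB4 overlapped and the treated groups were about 1 apart, a difference of -1.11 ± 0.12 (adjusted p = 0.00587). ADM, the vasodilator peptide adrenomedullin, went from 9.54 and 9.46 to 10.49 and 10.63 and from 8.62 and 8.73 to 10.84 and 10.97, a difference of -1.17 ± 0.13 (adjusted p = 0.00785). ANGPTL4, PFKFB4 and ADM were called in all 8 reduced fits.

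ANKRD37 had the largest difference of the hypoxia list, -1.74 ± 0.26 (adjusted p = 0.0232), but its untreated HCC1937 arrays were 7.63 and 7.01, and 6 of the 8 reduced fits gave adjusted p from 0.0524 to 0.105. PFKFB3, a relative of PFKFB4, had -0.92 (adjusted p = 0.0318), kept only without treated HCC1937+BRCA1 array 1 and at up to 0.134 without untreated HCC1937 array 1. Apart from these 5 and NDRG1, no member was called. The histone demethylase gene KDM3A rose by 2.02 and 2.01 (difference 0.01, 95% interval -0.24 to 0.27) and the collagen hydroxylase subunit gene P4HA1 by 1.39 and 1.36 (0.03, -0.22 to 0.28). NDRG1, a stress- and hypoxia-induced gene, went the other way, rising by 2.80 in HCC1937 and 2.12 in HCC1937+BRCA1 (difference 0.68 ± 0.13, adjusted p = 0.0483), a call that no reduced fit kept. The median difference of the list was -0.20, and of 15 glycolysis enzymes ENO2 (-0.75) was the 1 called. No reduced fit kept ENO2 (adjusted p up to 0.148, without untreated HCC1937 array 1), and with arrays at one median it had 0.0522.

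Metallothioneins are small metal-binding proteins, and 2 of their genes had a higher response in HCC1937+BRCA1. Of 15 measured metallothionein and zinc transport genes, 5 rose in HCC1937 and 10 in HCC1937+BRCA1, and the median difference was -0.33. Rises and falls together took in 22.7% and 33.6% of all genes. The difference was called for 2, both negative, against 0.543% negative calls among all genes. MT1X, whose promoter holds the 4 capital-letter matches above, went from 9.04 and 9.02 to 9.79 and 9.83 in HCC1937 and from 9.87 and 10.11 to 11.94 and 11.70 in HCC1937+BRCA1. All 4 groups of MT1X were apart, with HCC1937+BRCA1 higher with and without the drug, and the difference was -1.06 ± 0.16 (adjusted p = 0.0215). MT1F was not called in HCC1937 (effect -0.02) and rose by 1.03 in HCC1937+BRCA1, a difference of -1.05 ± 0.19 (adjusted p = 0.0473). The MT1X call was kept in 2 and the MT1F call in 1 of the 8 reduced fits, with adjusted p up to 0.0927 without untreated HCC1937 array 2 and up to 0.165 without untreated HCC1937+BRCA1 array 1. Metallothionein genes are close copies of each other, and probe sets may read more than 1 of them.

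Further genes rose in HCC1937+BRCA1 with little movement in HCC1937. TNFRSF10D, a decoy receptor for the death ligand TRAIL, read 6.68 and 6.39, then 6.74 and 6.84 in HCC1937, and 8.39 and 8.27, then 10.21 and 10.30 in HCC1937+BRCA1. The treated HCC1937+BRCA1 arrays were the highest, and the difference was -1.67 ± 0.16 (adjusted p = 0.00401). SLC34A2, a phosphate transporter gene, started at 9.25 and 9.27 against 7.04 and 6.83 and ended at 9.39 and 9.61 against 8.69 and 8.97. NEDD9, a scaffold protein gene of cell adhesion, started at 8.82 and 8.79 against 6.87 and 6.99 and ended at 9.07 and 9.21 against 8.57 and 8.92. In SLC34A2 and NEDD9 the untreated gap of 2.33 and 1.88 closed to 0.67 and 0.39 after the drug, with differences of -1.66 ± 0.18 (adjusted p = 0.00587) and -1.48 ± 0.17 (adjusted p = 0.00785). All 3 genes were called in the 8 reduced fits, as was RGS2, a regulator of G protein signalling, with effects of -0.14 and 0.90 (difference -1.04). RHOB, a small GTPase gene, was also called in all of them but rose in both lines, by 1.39 and 2.48 (difference -1.09). RGS2 and RHOB were picked after their values were seen. INSIG1 was the 1 called of 18 cholesterol synthesis genes and rose by 0.69 and 1.66 (difference -0.97 ± 0.14, limma adjusted p = 0.0215). With 1 array left out its difference ran from -1.11 to -0.84, and the call was lost without most arrays.

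A second kind of negative difference came from genes that were high in untreated HCC1937 and fell there. GYG2, which encodes the liver form of the glycogen primer glycogenin, read 9.04 and 9.27 in untreated HCC1937 and 7.72 and 7.71 with COH29, against 6.29 and 6.35 and then 6.21 and 6.44 in HCC1937+BRCA1. B3GALT5, a galactosyltransferase gene, fell from 8.21 and 8.37 to 7.01 and 6.79, against 5.77 and 5.71 and then 5.81 and 5.91. In both genes the HCC1937+BRCA1 arrays overlapped or nearly met and stayed below every HCC1937 array. The differences were -1.45 ± 0.15 (adjusted p = 0.00587) and -1.51 ± 0.14 (adjusted p = 0.00412), both called in all 8 reduced fits. B3GALT5-AS1, the antisense gene beside it, had -1.96 ± 0.16 (adjusted p = 0.00228), and whether the 2 probe sets read separate transcripts was not tested. FOXI1, a forkhead factor gene (-1.35), and CACNG4, a calcium channel subunit gene (-1.22), were also highest in untreated HCC1937 and fell there, by 1.5 and 1.11, with effects of -0.15 and 0.10 in HCC1937+BRCA1 that were not called. The treated HCC1937 arrays of FOXI1, at 7.88 and 7.61, overlapped the HCC1937+BRCA1 arrays. FOXI1 and CACNG4 were called in all 8 reduced fits and were picked after their values were seen. The untreated arrays enter the difference itself, so a gap before the drug and a difference of response are not independent measurements. The arrays have a floor, which limits how far a low probe set can fall, and its part in these differences was not tested.

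SPIC, a myeloid transcription factor gene, had the largest negative difference, -2.37 ± 0.42 (adjusted p = 0.0415), and rests on scattered values. It read 6.20 and 6.42 in untreated HCC1937, 3.94 and 4.88 with COH29, and 3.67, 3.92, 4.62 and 3.92 on the HCC1937+BRCA1 arrays, near the bottom of the scale. Cyclic loess took its limma adjusted p to 0.0576 and the replicate block took it to 0.0681. The call was kept in 1 of the 8 reduced fits, that without treated HCC1937 array 2, with adjusted p from 0.065 to 0.16 in the other 7.

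**Figure D3:**
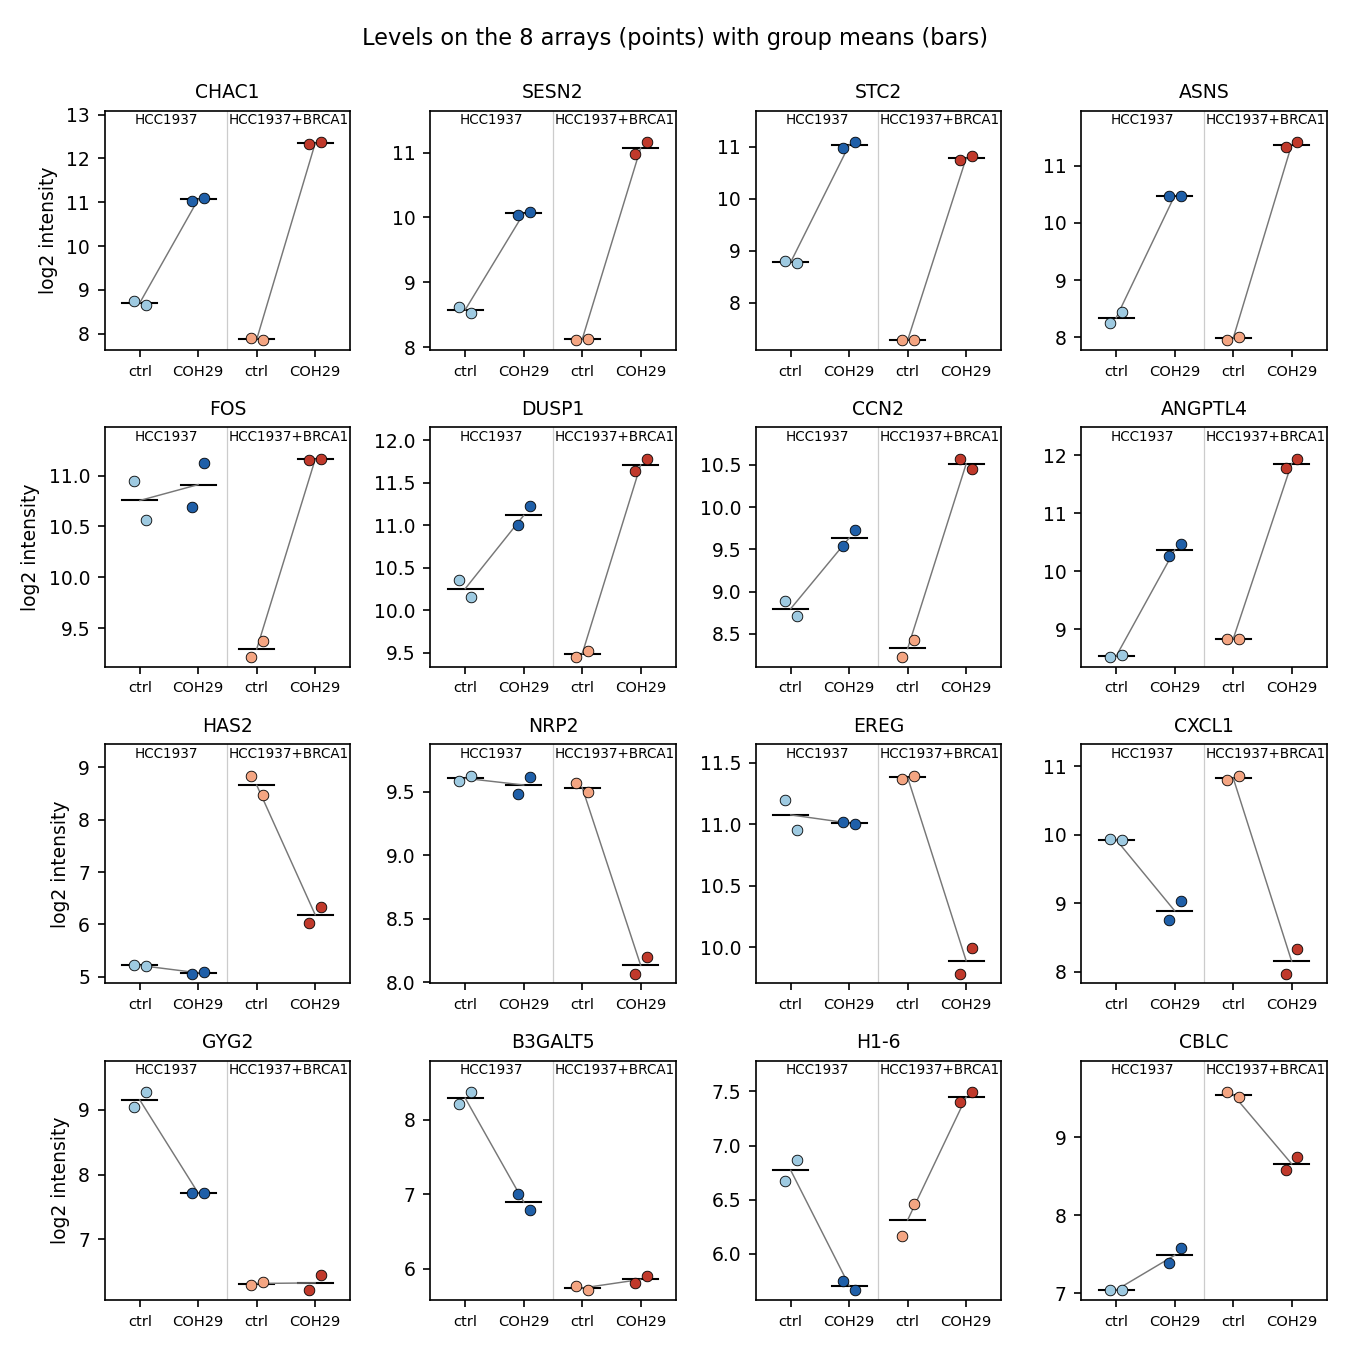
The log2 intensity on each of the 8 arrays is shown as a point for 16 genes, with bars at the group means, 2 arrays per group, and lines joining control to COH29 within a line; the vertical scales differ and do not start at 0. In the top row the HCC1937+BRCA1 group starts lowest and rises most, for example CHAC1 from 7.89 and 7.85 to 12.33 and 12.37, while in HAS2, NRP2 and EREG it falls and HCC1937 stays nearly level.

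Genes with a positive difference mostly fell in HCC1937+BRCA1. HAS2, a synthase of the matrix sugar hyaluronan, had the largest, 2.33 ± 0.19 (adjusted p = 0.00228). It read 8.84 and 8.48 in untreated HCC1937+BRCA1 and 6.03 and 6.34 with COH29, against 5.22 and 5.21 and then 5.06 and 5.09 in HCC1937. All HCC1937 arrays lay below all HCC1937+BRCA1 arrays. CD180, a Toll-like receptor relative, had the same order, at 6.68 and 6.75 falling to 4.85 and 5.00 against 4.59 and 4.70 untreated and 4.48 and 4.68 treated in HCC1937 (difference 1.73 ± 0.14, adjusted p = 0.00228). For both genes the HCC1937 values were low on the scale, and the part of the floor was not tested. ZNF826P (1.75), KCNK2 (1.61), SPART (1.58), LINC00417 (1.84), NAALADL2 (1.31) and ZNF415 (1.31) also read between 4.59 and 6.37 on all HCC1937 arrays and at least 7.71 on the untreated HCC1937+BRCA1 arrays. ZNF826P was called in 7 of the 8 reduced fits, KCNK2 and SPART in 6, and LINC00417, NAALADL2 and ZNF415 in 1.

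In other genes the untreated lines were close. NRP2, the neuropilin 2 receptor for semaphorins and VEGF-C, read 9.59 and 9.63 in untreated HCC1937 and 9.57 and 9.49 in untreated HCC1937+BRCA1. With COH29 it read 9.49 and 9.62 against 8.07 and 8.20. The treated HCC1937+BRCA1 arrays alone were low, and the difference was 1.35 ± 0.13 (adjusted p = 0.00401). EREG, the EGF receptor ligand epiregulin, read 11.20 and 10.96, then 11.02 and 11.01 in HCC1937, and 11.37 and 11.40, then 9.79 and 10.00 in HCC1937+BRCA1 (difference 1.42 ± 0.15, adjusted p = 0.00587). It was the 1 called of 16 genes of the EGF receptor family and its ligands, whose median difference was -0.09. Both NRP2 and EREG were called in all 8 reduced fits.

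CXCL1, a neutrophil chemokine gene, fell in both lines and further in HCC1937+BRCA1. It went from 9.94 and 9.92 to 8.75 and 9.02 and from 10.80 and 10.86 to 7.97 and 8.33, so HCC1937+BRCA1 held the highest and the lowest arrays. The difference was 1.64 ± 0.19 (adjusted p = 0.00785). Of 23 inflammatory chemokines and cytokines it was the 1 called positive, IL1A was called negative (-0.91, lost in every reduced fit), and the median was -0.01. TRIM31, a ubiquitin ligase gene, fell from 11.51 and 11.33 to 10.98 and 10.95 in HCC1937 and from 8.92 and 8.99 to 7.07 and 6.89 in HCC1937+BRCA1. It differs from HAS2 in that the line where it fell more was the lower one before the drug, and its difference was 1.52 ± 0.14 (adjusted p = 0.00401). CXCL1 and TRIM31 were called in all 8 reduced fits. Of 29 interferon-stimulated genes, MX2 (-0.80) and IFI44L (0.86) were called in opposite directions, each lost in at least 7 reduced fits.

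Some genes moved in opposite directions. MC5R, a melanocortin receptor gene, had effects of 0.47 in HCC1937 and -0.80 in HCC1937+BRCA1 (difference 1.27 ± 0.16, limma adjusted p = 0.012). With 1 array left out its difference ran from 1.11 to 1.43, and the call was lost without some arrays. H1-6, a linker histone gene known from the testis, fell from 6.67 and 6.87 to 5.75 and 5.66 in HCC1937 and rose from 6.16 and 6.46 to 7.40 and 7.49 in HCC1937+BRCA1. Its untreated values were the closest of its 4 groups, and the difference was -2.20 ± 0.17 (adjusted p = 0.00228). CBLC, a ubiquitin ligase gene of the CBL family, did the reverse, rising from 7.04 and 7.04 to 7.39 and 7.58 and falling from 9.57 and 9.52 to 8.57 and 8.74 (difference 1.33 ± 0.14, adjusted p = 0.00587). Both were called in all 8 reduced fits. VNN1, a pantetheinase gene (-1.40), and TNFAIP6, a hyaluronan-binding protein gene (-1.33), fell in HCC1937 and rose in HCC1937+BRCA1, and their calls were kept in 3 and 1 of the 8 reduced fits.

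Replication-dependent histone genes, which are transcribed in S phase, fell more often than they rose. Of 48 measured, 26 fell and 7 rose in HCC1937, while HCC1937+BRCA1 had 32 called falls and 7 called rises, with median effects of -0.35 and -0.71. The median difference was 0.31, 36 were positive, 4 were called positive (0.413% of all genes were) and 1 was called negative. H1-1, a linker histone gene, read 11.47 and 11.50, then 11.10 and 11.14 in HCC1937, and 11.16 and 11.19, then 9.39 and 9.33 in HCC1937+BRCA1. The 2 treated HCC1937+BRCA1 arrays stood far below the other 6, and the difference of 1.45 ± 0.11 (adjusted p = 0.00228) was called in all 8 reduced fits. H3C1 (1.17), H3C8 (0.97) and H4C2 (0.91) were called with all arrays, and leaving out 1 array left 1 to 3 positive calls. H3C1 kept its call in 2, H3C8 in 3 and H4C2 in 1 of the reduced fits. H3C10 was the 1 called negative, rising by 0.46 and 1.77 (difference -1.30 ± 0.19, adjusted p = 0.0189), and 2 of the reduced fits kept it, with adjusted p up to 0.0873 without treated HCC1937+BRCA1 array 2. Histone genes of a type are near copies of each other, so probe sets may read several.

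**Figure D4:**
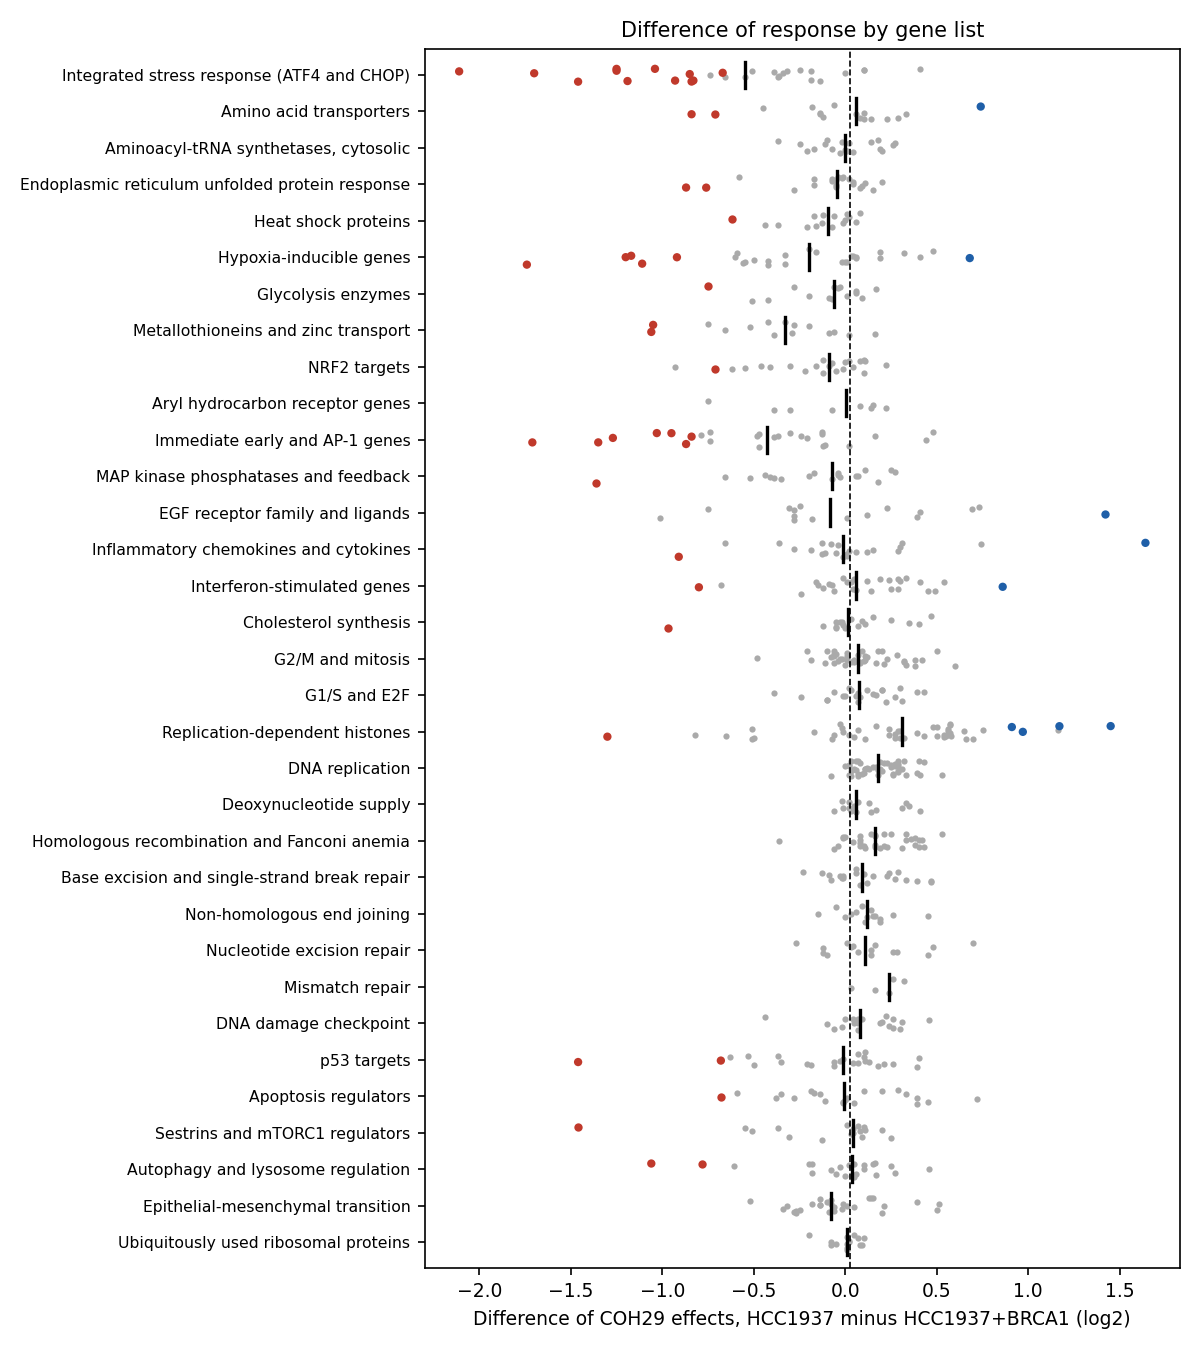
Each point is a gene of 1 of 33 lists, placed by its difference of COH29 effects (log2, HCC1937 minus HCC1937+BRCA1), grey where not called, red where called negative and blue where called positive, with a bar at the list's median and a dashed line at the median of all genes (0.02). The integrated stress and immediate early lists have their bars at -0.55 and -0.43 and the histone list at 0.31. The DNA replication and repair lists hold 0 called genes, beside 0.956% of all genes.

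For DNA repair, in which the series describes the lines as deficient and normal, 0 genes were called for the difference. Among all genes 0.956% were called, and at that share lists of this size would hold few or no calls. The 6 lists of homologous recombination and Fanconi anemia, base excision, end joining, nucleotide excision, mismatch repair and checkpoint genes held 111 measured genes. Of these 22 (19.8%) had an unadjusted p under 0.05, 20 of them positive, beside 13.2% of all genes. Positive differences made up 87 of the 111 (78.4%), beside 55.1% of all genes, and the median was 0.14 (0.19 with arrays at one median, 0.13 after cyclic loess). The smallest adjusted p was 0.0591, for ERCC4, the XPF subunit of a nuclease that cuts damaged and crosslinked DNA. ERCC4 read 9.22 and 9.10, then 8.96 and 9.13 in HCC1937, and 9.07 and 9.05, then 8.31 and 8.17 in HCC1937+BRCA1. The treated HCC1937+BRCA1 arrays were the low ones, and the difference was 0.70 (95% interval 0.39 to 1.02). UBE2T, the ubiquitin-conjugating enzyme of the Fanconi pathway, had 0.53 (0.28 to 0.78, adjusted p = 0.0751), and H2AX, the histone marked at breaks, had -0.44 (adjusted p = 0.139). The median half-width of the unadjusted 95% intervals was 0.30, while the smallest difference called among all genes was 0.59 in size. A difference that was not called is therefore not shown to be absent at this number of arrays. With trend and robust moderation 4 of the 111 were called, without low genes 2, and under the other 2 scalings 0.

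In homologous recombination and Fanconi genes alone, called falls numbered 9 of 34 in HCC1937 and 17 in HCC1937+BRCA1 and called rises 2 and 0. Falls and rises together took in 22.7% and 33.6% of all genes. The median difference was 0.16, with 0 called, beside 0.956% of all genes. BRCA1 itself had 0.19 ± 0.14 (95% interval -0.13 to 0.51, adjusted p = 0.649).

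Genes of DNA replication and deoxynucleotide supply, the pathway of the drug's target, also held 0 calls, beside 0.956% of all genes. There were 4 under trend and robust moderation and 1 without low genes. Of 66 measured genes 13 (19.7%) had an unadjusted p under 0.05, all positive, and 61 (92.4%) had a positive difference, with a median of 0.14. Called falls were 7 of 49 replication genes in HCC1937 and 20 in HCC1937+BRCA1, where 22.7% and 33.6% of all genes fell or rose. POLD3, a subunit of DNA polymerase delta, was nearest to the threshold. It fell from 10.13 and 10.05 to 9.58 and 9.64 and from 10.22 and 10.15 to 9.17 and 9.17, a difference of 0.53 (95% interval 0.27 to 0.80, adjusted p = 0.0804). The untreated POLD3 groups were alike and the treated ones apart.

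The subunits of ribonucleotide reductase were not called. RRM2, the regulated small subunit, went from 10.77 and 10.85 to 11.09 and 11.15 in HCC1937 and from 11.43 and 11.33 to 11.43 and 11.25 in HCC1937+BRCA1, a difference of 0.35 (95% interval 0.05 to 0.65, adjusted p = 0.305). The large subunit gene RRM1 had 0.14 (-0.16 to 0.43, adjusted p = 0.726) and the p53-inducible small subunit gene RRM2B 0.07 (-0.19 to 0.33, adjusted p = 0.871). CDKN1A, which encodes the cell cycle inhibitor p21, rose by 1.41 and 1.62, with a difference of -0.21 (-0.61 to 0.19, adjusted p = 0.691). Of 25 p53 target genes, SESN2 and PMAIP1 (-0.68), a BH3-only death gene, were called, and the median was -0.01. SESN2 kept its call in all 8 reduced fits and PMAIP1 in 0 (adjusted p up to 0.155, without untreated HCC1937 array 2), and with arrays at one median PMAIP1 had 0.0705. Mitotic genes fell in both lines, 38 and 41 of 43, with median effects of -0.83 and -0.94. For the difference 0 were called, beside 0.956% of all genes, and 7 had an unadjusted p under 0.05. The 24 genes of G1/S and E2F likewise had 0 calls and 3 unadjusted.

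Genes known from other cell types were among the calls. CD14, a monocyte lipopolysaccharide receptor gene, read 10.47 and 10.74 in untreated HCC1937, 9.38 and 9.57 with COH29, and 6.62 to 6.87 on the HCC1937+BRCA1 arrays (difference -1.0 ± 0.17, adjusted p = 0.0357). CDH5, the endothelial cadherin gene, fell by 1.28 and 0.50 (difference -0.77 ± 0.14, adjusted p = 0.0429). No reduced fit kept the call of CD14 or CDH5. The summed linear intensity of the 7 leukocyte markers measured was 3319 to 3403 in untreated HCC1937, 2775 to 2781 treated, 1919 to 1938 in untreated HCC1937+BRCA1 and 2184 to 2320 treated. That of the 6 endothelial markers was 1397 to 1466, 722 to 768, 780 to 835 and 600 to 651. Among these 6, PECAM1 fell most, by 1.95 in HCC1937 and 1.48 in HCC1937+BRCA1, and its difference of -0.47 was not called. Of the other leukocyte markers 0 of 6 were called, and PTPRC read 3.73 to 4.31 on all arrays. All samples were cultures of a breast cancer line or its derivative, and whether other cells had a part in the results was not tested. The 8 fibroblast markers summed to 614 to 784 over all arrays with 0 called. In these bulk samples fewer cells with a transcript and less of it per cell cannot be told apart.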

How the data were processed

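RNA was measured on 8 Affymetrix gene arrays, in 4 groups of 2 named by their titles. The deposited table gives log2 intensities of 33297 probe sets, and RMA and Partek are named without a version in the submitters' processing notes. RMA corrects background, equalises the arrays' distributions and summarises probes, which can shrink differences that many genes share. Rank by rank, no 2 arrays were more than 0.297 apart. No genome build is given in the sources used here for the probe sets, and no detection p was used. The number of arrays limits the precision.

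Gene names came from the platform annotation (of the probe sets, 19460 with 1 gene, 1754 with several, 12083 with none), and those without exactly 1 gene were left out. RefSeq's table (GRCh38.p14) held 19429 of the names, and 0 changed. Each of 18417 genes was represented by its brightest probe set on average, which for 769 was a choice among several. The R package limma (version 3.58.1, under R 4.3.3) fitted a mean per group with eBayes moderation and 4 residual degrees of freedom, so that the groups shared one estimate of the spread. The difference of COH29 effects was tested with Benjamini-Hochberg adjustment over all genes at 0.05. Python 3.11.15 with pandas 2.3.3 and matplotlib 3.10.9 made the tables, promoter searches and figures.

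The comparison, the 38 gene lists and the rule for named genes were chosen with earlier results of these data known. The rule names BRCA1, RRM1, RRM2, RRM2B and CDKN1A, the 15 largest positive and negative differences among called genes whose lines' array differences did not overlap, up to 4 called members of each list, and the 5 largest called in opposite directions. Other members of the stress, immediate early, hypoxia, replication and repair lists and genes called in all reduced fits were named after their values were seen. A reduced fit leaves out 1 of the 8 arrays, and its lone array in a group is assumed to vary like the others.

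Alternatives were a filter at the 30th percentile of mean level, cyclic loess or one common median between arrays, moderation with trend and robust or none, a minimum difference of 1, averaging a gene's probe sets, a replicate block, each array left out, and only the 4 arrays of a line for its own effect. The fit was tested on simulated data with the fit's own spread and a planted difference in 200 genes. It recovered 10.4% of those of size 0.5, 98.5% of size 1 and 100% of size 2. Of its 151 calls, 12 were genes without a planted difference.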

Additional observations from a re-analysis of the deposited data

Results flagged for a closer look

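The test of the difference of COH29 effects itself set 176 genes apart between the lines. Among them, 5 that were called in opposite directions are given here as the largest of their kind. H1-6 (difference -2.20), B3GALT5-AS1 (-1.96), VNN1 (-1.40) and TNFAIP6 (-1.33) fell with COH29 in HCC1937 and rose in HCC1937+BRCA1, and CBLC (1.33) rose in HCC1937 and fell in HCC1937+BRCA1. With 2 arrays per group, no array could be tested for standing apart from its group.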

How the results depend on the processing

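Positive and negative calls (76 and 100) moved by over 1.5 times under several settings. Without genes below the 30th percentile there were 188 and 163, with trend and robust moderation 327 and 239, with no moderation 1 and 2, and against a minimum difference of 1 there were 0 and 0. Leaving out 1 array gave 14 to 37 positive and 26 to 39 negative calls. Fewer arrays leave fewer residual degrees of freedom, and for the other settings the cause was not tested. With the replicate number as a replicate block there were 45 and 61, and 103 of the 176 genes kept their call. Same-numbered arrays deviated from their group means with correlations from -0.204 to 0.26, the highest between untreated and treated HCC1937+BRCA1. Whether the numbers pair the samples cannot be decided from this, because 2 arrays per group give only 1 independent deviation per gene. With numbers crossed between the lines, a choice made after seeing the data, there were 88 and 111. Counts under one median (104 and 91), cyclic loess (57 and 84) and the mean of probe sets (79 and 102) stayed within 1.5 times, and 157 and 136 of the 176 calls were kept under the first 2. With only the 4 arrays of a line, COH29 changed 3644 genes in HCC1937 and 5603 in HCC1937+BRCA1. No called gene changed sign under any of these settings. Only cyclic loess and, for genes with several probe sets, the mean of probe sets could have turned a called sign.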
